A study of Homo sapiens with 6 samples.

Results

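The 39 genes described here encode proteins of the centromere and the kinetochore. They were picked by symbol from known structural parts, by a rule that uses no measured value although earlier results of these data were known, and all 39 were found among the 58884 genes of the count tables. The kinetochore is the protein assembly that joins a chromosome to the spindle. Its inner layer, the constitutive centromere-associated network (CCAN), sits on chromatin that carries the histone H3 variant CENP-A. Its outer layer, built around the KNL1, MIS12 and NDC80 complexes, binds microtubules in mitosis and recruits the spindle checkpoint. The CCAN stays on centromeres through the cell cycle, whereas most outer parts are loaded for mitosis. By role, 19 genes were assigned to the inner side (CENP-A, CENP-B, the CENP-A deposition factors and the CCAN), 17 to the outer side and 3 to the chromosomal passenger complex, which works at the inner centromere and was therefore kept apart.

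All libraries come from HSC-4, a cell line grown from a squamous carcinoma of the mouth. Cells were treated for 24 h with 50 μM DAPT, which inhibits γ-secretase and so blocks the cleavage that sets the signalling part of Notch receptors free, or, by the methods of the study, with its vehicle DMSO alone. There were 3 mRNA libraries per group. The labels call the second group only a control and its count columns carry the unexplained letters GM, so an effect of the vehicle cannot be told apart from that of DAPT if these cells had growth medium only. The labels give no separate cultures or days, so the p-values measure the spread between these samples, which may be partly technical. Read counts of replicates 2 and 3 were closest, with a chi-square per degree of freedom of 1.58 in the controls and 1.81 with DAPT. Pairs with replicate 1 lay further apart, at 5.68 and 5.58 in the controls and at 4.08 and 3.90 with DAPT. The cause of this was not tested. Total counts ran from 12276313 to 16317672 per library, and the 39 genes had between 83 and 4942 reads each per library. The values below are reads of a gene per 1000000 reads in the library (CPM), after TMM scaling for library composition, and gene positions are on GRCh38.

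As a check of the treatment, the Notch targets *HES1*, *HEY1* and *NRARP* fell with DAPT, at log2 fold changes of -0.77, -1.98 and -1.43. Of 6 squamous epithelial markers, *KRT5*, *KRT17*, *TP63*, *SFN* and *CDH1* lay at 197 CPM or above in every library and *KRT14* at 3.54 CPM or below. These markers moved with DAPT as well, with *KRT5* (-1.04), *KRT14* (-2.79), *KRT17* (-0.88), *TP63* (-0.58) and *SFN* (-0.55) called lower and *CDH1* (0.27) called higher in log2 fold change. Their part in the results was not tested. The fibroblast marker *COL1A2* stood at 215 CPM in control replicate 1 and at 0.195 to 2.02 CPM in the other 5 libraries, and *COL1A1*, *PDGFRB* and *LUM* were also highest in that library, so all 4 fibroblast markers set it apart. *COL1A1* was at 274 CPM there and at 48.3 to 54.0 CPM elsewhere. The leukocyte marker *CD3E* was at 0 in every library, while *PTPRC*, *LYZ* and *PECAM1* had at most 4 reads and *VWF* between 9 and 21. The part of the fibroblast transcripts in the results below was not tested, and the main counts are also given without control replicate 1.

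Of the 39 centromere and kinetochore genes, 21 were lower with DAPT and 0 were higher at an adjusted p-value under 0.05 (edgeR's quasi-likelihood test, Benjamini-Hochberg adjustment over 15001 genes). Among all tested genes, 18.0% were called lower and 17.2% higher. At an unadjusted p under 0.05 the edgeR counts were 23 lower and 0 higher. Shares of all tested genes at that unadjusted limit were not taken. DESeq2 and limma-voom also called 0 of the 39 higher, against 5.71% and 16.7% of all genes they tested. The DESeq2 share is of a larger set of 29204 genes, which includes genes with few reads. The decreases were modest. The median log2 fold change of the 39 genes was -0.18 against 0.01 for all tested genes, the range was -0.60 to 0.16, and 0 genes reached a 2-fold change. Of the 39, 35 had a negative log2 fold change, and in 10 the level was at least 25% lower. Counts of all tested genes at these limits were taken only without control replicate 1. The 3 DAPT values lay entirely below the 3 control values in 24 of the genes, against 22.7% of all tested genes, and entirely above in 1, against 23.6%. Without control replicate 1, 21 of the 39 were again called lower and 0 higher in edgeR's test, against 19.1% and 18.0% of all tested genes. In those 5 libraries 32 of the 39 log2 fold changes were negative, against 7430 of all 15162 tested genes. At least 25% lower were 9 of the 39 genes, against 1680 of the 15162. The groups did not overlap in 26 lower and 2 higher genes, against 28.9% and 29.4% of all tested genes.

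**Figure D1:**
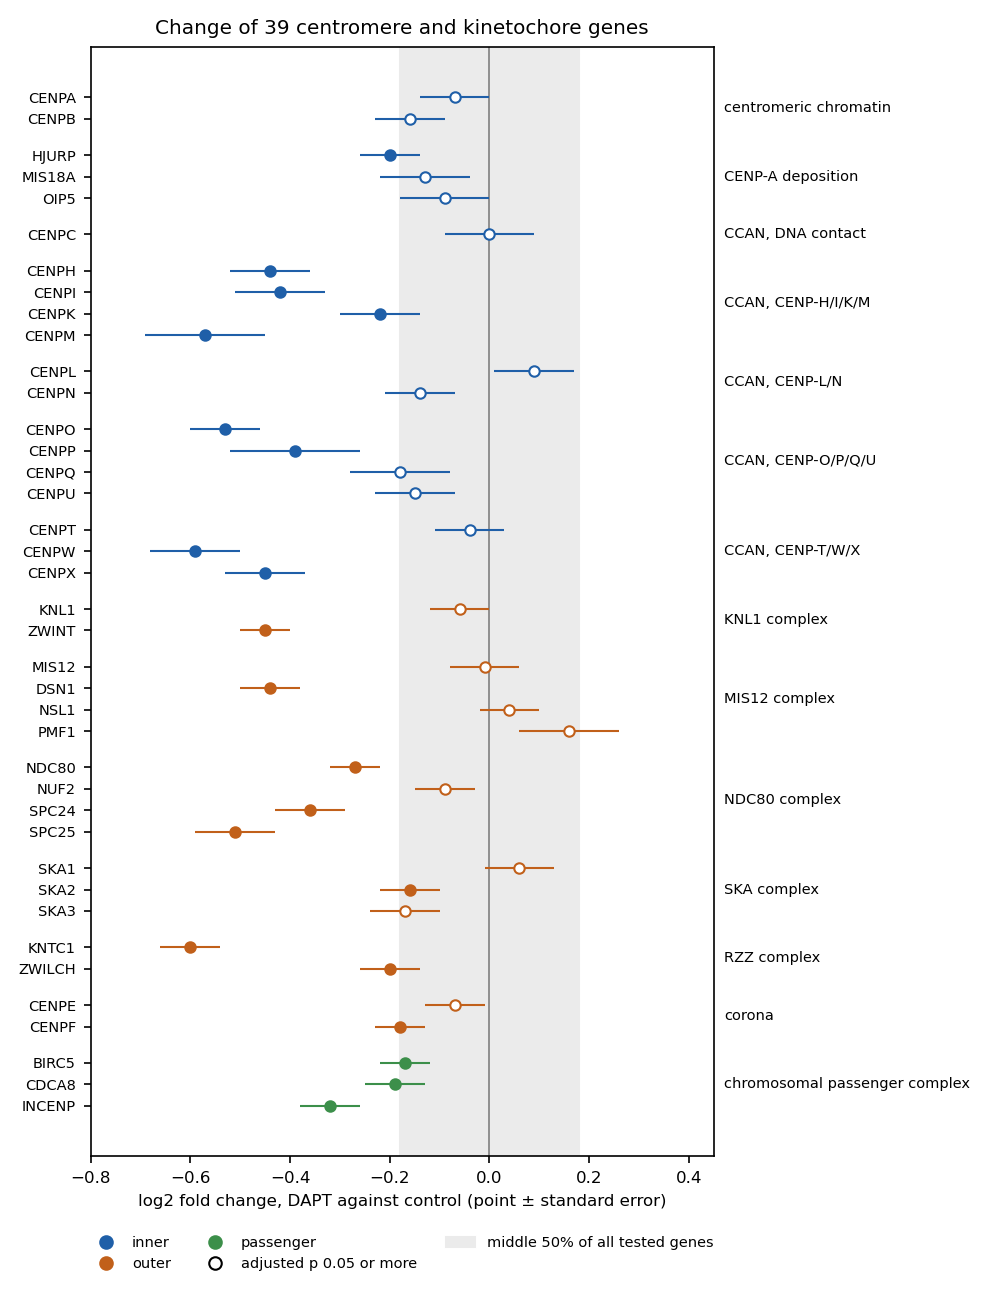
Log2 fold change of each of the 39 genes between 3 DAPT and 3 control libraries, with its standard error, grouped by complex on the vertical axis. Colours separate inner, outer and passenger genes, filled points have an adjusted p-value under 0.05, and the grey band spans the middle 50% of all tested genes, from -0.18 to 0.18. Filled points occur on the left only, from *SKA2* at -0.16 to *KNTC1* at -0.60, and most complexes hold both filled and open points.

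The inner and the outer side were compared next. On the inner side 9 of 19 genes were lower (47.4%) and on the outer side 9 of 17 (52.9%), and the median log2 fold changes were -0.18 and -0.17. Without control replicate 1 the counts were 10 and 8 and the medians -0.23 and -0.16. The mean log2 difference of the 19 inner genes from their control mean was -0.27, -0.24 and -0.24 in the 3 DAPT libraries, and that of the 17 outer genes was -0.19, -0.19 and -0.21. The control libraries ran from -0.06 to 0.03 on this scale for the inner genes and from -0.02 to 0.03 for the outer genes, so both sides lay below every control in every DAPT library. The outer mean minus the inner mean was 0.09, -0.04 and -0.05 in the controls and 0.08, 0.05 and 0.03 with DAPT, and these ranges overlapped. The overlap came from control replicate 1. Without it, with the other 2 controls as reference, the difference was 0.00 and 0.00 in the controls and 0.13, 0.10 and 0.07 with DAPT, so the ranges did not overlap, and the DAPT means were -0.28 for the inner and -0.18 for the outer genes. The comparison of the sides therefore depends on this library. The 3 passenger genes were all lower, and counting them with the inner side gave 12 of 22 and a median of -0.19. Single genes ranged from -0.59 to 0.09 on the inner side and from -0.60 to 0.16 on the outer side. Within the inner side, 8 of 14 CCAN genes were lower with a median of -0.31, against 1 of 5 genes for CENP-A, CENP-B and the deposition factors with a median of -0.13. Without control replicate 1 these were 8 of 14 (-0.34) and 2 of 5 (-0.13), and the 3 passenger genes were again all lower. These are descriptions of the lists, and the difference between them was not tested.

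**Figure D2:**
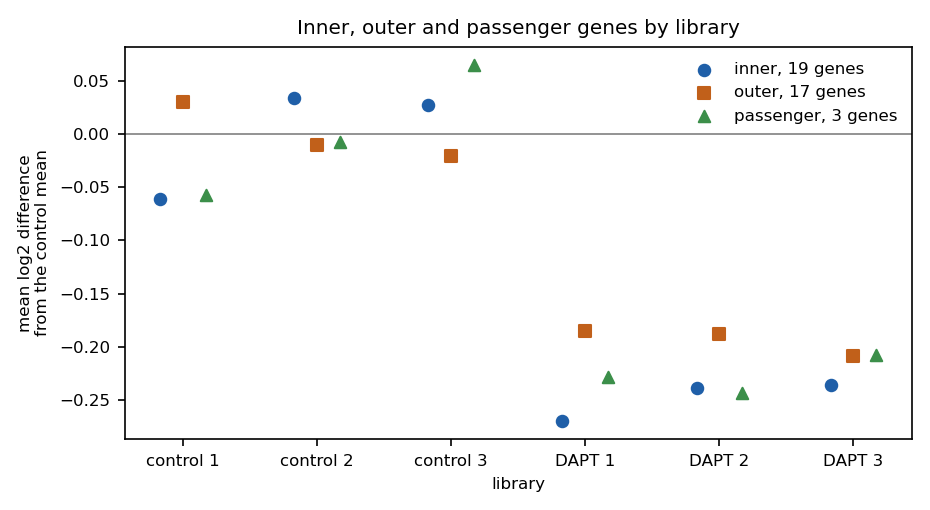
Mean log2 difference from the control mean for the 19 inner, 17 outer and 3 passenger genes in each of the 6 libraries. All DAPT points lie between -0.19 and -0.27, the control points lie between -0.06 and 0.07, and control replicate 1 is the control in which the inner genes are lowest.

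The promoters of many mitotic genes share short sequence elements. The cell cycle genes homology region (CHR) is read by complexes built on the MuvB core, CCAAT boxes are bound by NF-Y, and E2F sites are bound by E2F factors. RefSeq promoters (GRCh38.p14, 250 bases before to 50 after the start) were on hand for 32 of the 39 genes. *BIRC5*, *CENPH*, *CENPL*, *CENPM*, *KNL1*, *KNTC1* and *MIS18A* were without one. The RefSeq start lay far from the gene start of the count annotation in *NUF2* (55378 bases), *SPC25* (22941), *CENPA* (21767), *CENPI* (2840) and *CENPX* (1229). Which start these cells use was not tested. Letters were searched on both strands, with TTTGAA and its variant TTCGAA for the CHR, with CCAAT for NF-Y, and with the cores TTCCCGC and also TTGGCGC, besides these TTCGCGC and likewise TTGCCGC, for E2F. The CHR letters stood in 16 of the 32 promoters (50.0%) against 16.4% of all 35116 RefSeq promoters, CCAAT in 20 (62.5%) against 34.6% and the E2F letters in 13 (40.6%) against 13.0%. Among the 11073 tested genes with a promoter the shares were 11.3%, 36.4% and 20.5%. The 4 promoters below have the CHR letters just upstream of the start and show genes on both sides of the threshold: *CENPA* was not called, *ZWINT* was lower, and *CDCA8* and *INCENP* are partners in the passenger complex. Each line gives the 120 bases before the RefSeq start, 5′ to 3′ on the gene's strand, with CHR, CCAAT and E2F letters in capitals.

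*CENPA* (chr2:26785936-26786055, plus strand): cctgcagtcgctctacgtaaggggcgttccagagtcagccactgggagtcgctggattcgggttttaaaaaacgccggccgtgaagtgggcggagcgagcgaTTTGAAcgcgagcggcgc
*ZWINT* (chr10:56361274-56361393, minus strand): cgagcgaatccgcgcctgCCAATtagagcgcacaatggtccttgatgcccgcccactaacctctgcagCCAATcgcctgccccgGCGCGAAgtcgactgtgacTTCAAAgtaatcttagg
*CDCA8* (chr1:37692396-37692515, plus strand): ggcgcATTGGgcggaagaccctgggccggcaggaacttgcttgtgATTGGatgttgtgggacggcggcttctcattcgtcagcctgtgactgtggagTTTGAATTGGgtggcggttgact
*INCENP* (chr11:62123891-62124010, plus strand): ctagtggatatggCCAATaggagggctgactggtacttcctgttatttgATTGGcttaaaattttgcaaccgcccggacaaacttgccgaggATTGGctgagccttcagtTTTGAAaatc

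The CHR letters began at positions -18, -17, -23 and -10 from the start in *CENPA*, *ZWINT*, *CDCA8* and *INCENP*. In *CDCA8* they shared a base with an inverted CCAAT. The median log2 fold change was -0.18 for the 16 genes with CHR letters and -0.17 for the 16 without, and -0.18 for the 20 genes with CCAAT against -0.16 for the 12 without. With E2F letters it was -0.14, with 3 of 13 genes called lower, and without them -0.22, with 14 of 19 called lower. For the CHR letters, 9 of 16 genes with and 8 of 16 without them were called lower. For CCAAT it was 12 of 20 with and 5 of 12 without. Of all tested genes 18.0% were called lower, and this share was not split by letters. Of the genes without a promoter, *KNTC1* (-0.60), *CENPM* (-0.57), *CENPH* (-0.44) and *BIRC5* (-0.17) were called lower. *MIS18A* (-0.13), *KNL1* (-0.06) and *CENPL* (0.09) were not called, and all of these are missing from the splits. The 5 genes with E2F but no CHR letters were *CENPB*, *CENPQ*, *CENPU*, *MIS12* and *PMF1*, and 0 of them were called in edgeR's test. Without control replicate 1, 10 of 16 genes with and 7 of 16 without CHR letters were lower (medians -0.19 and -0.19). For CCAAT, 10 of 20 with and 7 of 12 without were then lower (-0.18 and -0.21). The order of both the lower shares and the medians thus turned for CCAAT. For E2F letters it was 4 of 13 with and 13 of 19 without (-0.13 and -0.24). These counts are also of the fit without control replicate 1. *CENPB* was then the only one called of the 5 genes with E2F but no CHR letters. A match is a stretch of letters and does not show binding. Over the 11073 tested genes with a promoter, the medians were -0.01 with and 0.01 without E2F letters. They were -0.03 with and 0.01 without CHR letters, and 0.01 with and 0.01 without CCAAT. The differences between genes with and without letters were not tested.

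**Figure D3:**
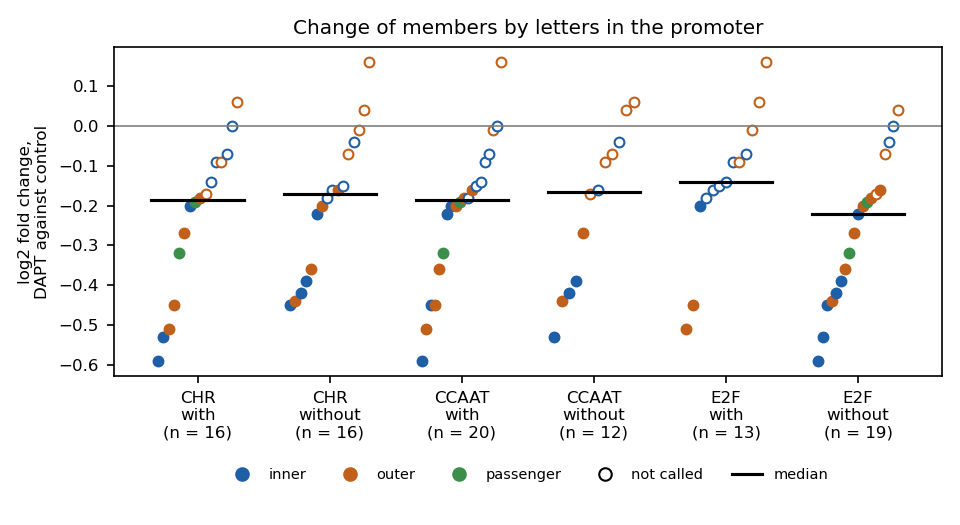
Log2 fold change of the 32 genes with a RefSeq promoter, split by whether the promoter holds CHR, CCAAT or E2F letters, with a bar at each median. Filled points were called lower in edgeR's test and open points were not called. The medians with and without CHR letters are -0.18 and -0.17, and those with and without E2F letters -0.14 and -0.22.

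CENP-A marks the place of the centromere, and CENP-B binds a short box in the alpha satellite repeats beneath it. *CENPA* (chromosome 2, 26764289 to 26801067) was at 46.4, 49.6 and 55.7 CPM in the controls and at 47.1, 51.3 and 45.9 CPM with DAPT. The groups overlapped, and the log2 fold change was -0.07 (standard error 0.07, edgeR adjusted p = 0.495). Another gene on the same strand, *SLC35F6*, covers 7.08% of its exonic bases, where reads were not counted. *CENPB* (chromosome 20, 3783851 to 3786740) was at 104, 118 and 125 CPM in the controls and at 98.3, 100.3 and 111 CPM with DAPT, and a single DAPT value lay inside the control range. Its log2 fold change was -0.16 (edgeR adjusted p = 0.0589), and it was called without control replicate 1 (-0.23, edgeR adjusted p = 0.00161), without DAPT replicate 3 (-0.22), with RLE factors (-0.17) and with no filter on low counts (-0.16). It was also called with the replicate numbers as a replicate block (-0.16, edgeR adjusted p = 0.0244).

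New CENP-A is placed after mitosis by the chaperone HJURP, which the Mis18 complex, with MIS18A and OIP5 (Mis18β) among its parts, brings to the centromere. *HJURP* was lower in every DAPT library, at 77.6, 72.0 and 67.2 CPM against 82.5, 81.8 and 84.4 CPM in the controls. Its log2 fold change was -0.20 (standard error 0.06, edgeR adjusted p = 0.0119), and the call was lost without DAPT replicate 3 (-0.15). The partners were not called, with log2 fold changes of -0.13 for *MIS18A* and -0.09 for *OIP5* and overlapping groups. For *OIP5*, the DAPT values of 27.5, 31.4 and 36.9 CPM spread wider than the control values of 32.8, 35.5 and 33.8 CPM.

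Of the CCAN, CENP-C bridges the CENP-A nucleosome to the MIS12 complex. *CENPC* (chromosome 4, 67468762 to 67545503) was at 17.6, 15.9 and 17.6 CPM in the controls and at 18.4, 16.6 and 15.9 CPM with DAPT. The ranges overlapped and the edgeR adjusted p was 0.988. The other nucleosome contact is CENP-N, which pairs with CENP-L. *CENPN* had a log2 fold change of -0.14 (edgeR adjusted p = 0.12) with every DAPT value below every control value, and *CENPL* one of 0.09 with overlapping groups.

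CENP-H, CENP-I, CENP-K and CENP-M form a compact subcomplex of the CCAN, and all 4 genes were lower. *CENPM* (chromosome 22, 41938737 to 41947152) stood at 15.4, 18.4 and 20.7 CPM in the controls and at 10.5, 14.3 and 11.8 CPM with DAPT. This gave a log2 fold change of -0.57 (standard error 0.12, edgeR adjusted p = 0.00132), and -0.68 without control replicate 1. *CENPH* fell from 33.0 ± 2.85 to 24.3 ± 1.80 CPM (SD, n = 3 each; log2 fold change -0.44) and *CENPI* from 27.9, 25.4 and 28.0 to 18.2, 19.4 and 23.3 CPM (log2 fold change -0.42). *CENPK* changed least, from 35.1, 39.8 and 38.4 to 33.97, 30.1 and 32.6 CPM, without overlap (log2 fold change -0.22, edgeR adjusted p = 0.0257). Its call was lost without control replicate 2 (-0.19), control replicate 3 (-0.22), DAPT replicate 2 (-0.18) or DAPT replicate 3 (-0.23). It was also lost under library size scaling and in DESeq2.

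CENP-O, CENP-P, CENP-Q and CENP-U, together with CENP-R, form another CCAN subcomplex that helps hold chromosomes in alignment and, through CENP-U, recruits PLK1. *CENPO* (chromosome 2, 24793136 to 24822376) was the most clearly changed of them, at 35.8, 36.3 and 38.1 CPM in the controls and 25.7, 25.3 and 25.4 CPM with DAPT. The libraries of each group were close together, and the log2 fold change was -0.53 (standard error 0.07, edgeR adjusted p = 7.99e-06). *CENPP*, with the fewest reads of the 39 genes, was at 8.41, 9.24 and 9.77 CPM in the controls and at 6.95, 6.07 and 7.91 CPM with DAPT (log2 fold change -0.39, edgeR adjusted p = 0.0245). Its call was lost without control replicate 2 (-0.38), control replicate 3 (-0.34), DAPT replicate 1 (-0.38) or DAPT replicate 2 (-0.30), and in DESeq2. *CENPQ* (-0.18) and *CENPU* (-0.15) were not called, although the DAPT values of *CENPU* all lay below the control values. *ITGB3BP*, which encodes CENP-R and comes from a wider list described below, was lower at -0.30 (edgeR adjusted p = 0.00475).

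CENP-T, CENP-W and CENP-X belong to a histone fold assembly that contacts DNA, and the tail of CENP-T binds the NDC80 complex. Of the 3 genes, 2 were lower. *CENPW* (chromosome 6, 126340174 to 126348875) was at 29.4, 37.2 and 33.4 CPM in the controls and at 20.5, 24.1 and 21.9 CPM with DAPT, the largest decrease on the inner side (log2 fold change -0.59, standard error 0.09, edgeR adjusted p = 3.32e-05). *CENPX* was at 30.5, 36.7 and 37.4 CPM in the controls and at 24.6, 25.5 and 26.4 CPM with DAPT (log2 fold change -0.45, edgeR adjusted p = 2.62e-04), and neither gene overlapped between groups. *CENPT* was at 39.2, 42.2 and 39.2 CPM against 40.0, 40.0 and 37.3 CPM, and the log2 fold change was -0.04 (standard error 0.07, edgeR adjusted p = 0.708). *CENPS*, whose product pairs with CENP-X, had 16 to 31 reads per library and shares 65.0% of its exonic bases with the readthrough gene *CENPS-CORT* (log2 fold change -0.47, edgeR adjusted p = 0.185).

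On the outer side, KNL1 is the scaffold of the spindle checkpoint and ZWINT its partner. *ZWINT* (chromosome 10, 56357227 to 56361273), whose promoter is printed above, was at 118, 131 and 130 CPM in the controls and at 90.9, 93.8 and 93.0 CPM with DAPT. The groups were far apart relative to their spread (log2 fold change -0.45, standard error 0.05, edgeR adjusted p = 1.37e-06). *KNL1* was at 101, 93.0 and 95.2 CPM against 89.9, 89.8 and 97.6 CPM, with overlap and a log2 fold change of -0.06 (edgeR adjusted p = 0.397).

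The MIS12 complex links the inner to the outer layer, and 1 of its 4 genes was called. *DSN1* (chromosome 20, 36751791 to 36773818) was at 86.5, 80.8 and 81.8 CPM in the controls and at 58.3, 61.1 and 64.2 CPM with DAPT (log2 fold change -0.44, standard error 0.06, edgeR adjusted p = 3.27e-06). *MIS12* itself was at 57.4, 54.1 and 50.4 CPM against 50.7, 58.9 and 51.6 CPM, and *NSL1* at 45.0, 44.9 and 43.0 CPM against 46.1, 45.0 and 45.9 CPM. Neither was called, with log2 fold changes of -0.01 and 0.04. *PMF1* was at 12.6, 12.9 and 12.4 CPM in the controls and at 14.9, 14.3 and 12.9 CPM with DAPT, and was the only one of the 39 whose DAPT values all lay above the controls (log2 fold change 0.16, edgeR adjusted p = 0.233). The readthrough gene *PMF1-BGLAP* covers 23.3% of its exonic bases, and reads there were not counted.

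The NDC80 complex is the main microtubule coupler, a rod with NDC80 and NUF2 at the microtubule end and SPC24 and SPC25 at the centromere end. *SPC25* (chromosome 2, 168834132 to 168913371) was at 27.0, 25.3 and 25.2 CPM in the controls and at 16.95, 18.9 and 18.8 CPM with DAPT (log2 fold change -0.51, standard error 0.08, edgeR adjusted p = 3.96e-05). *SPC24* fell from 34.1 ± 0.316 to 26.5 ± 0.0403 CPM (SD, n = 3 each; log2 fold change -0.36), with DAPT libraries that were almost level. *NDC80* was at 109, 103 and 106 CPM against 90.6, 88.0 and 85.8 CPM, also without overlap (log2 fold change -0.27, edgeR adjusted p = 3.97e-04). *NUF2*, at 70.0, 71.6 and 67.8 CPM against 68.6, 67.4 and 61.1 CPM, was not called (log2 fold change -0.09, edgeR adjusted p = 0.269).

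The SKA complex tracks depolymerizing microtubule ends together with NDC80. *SKA2* was at 75.3, 70.1 and 69.2 CPM in the controls and at 65.0, 61.9 and 65.0 CPM with DAPT, a small decrease without overlap (log2 fold change -0.16, edgeR adjusted p = 0.0322). Its call was lost in 5 of the 6 fits that left out a library, without control replicate 1 (-0.12), control replicate 2 (-0.18), DAPT replicate 1 (-0.17), DAPT replicate 2 (-0.14) or DAPT replicate 3 (-0.17). It was also lost under library size scaling (-0.12), with no filter on low counts (-0.16) and in DESeq2 (-0.16). *SKA3*, with a log2 fold change of -0.17, missed the threshold (edgeR adjusted p = 0.059) and passed it without control replicate 1 or without DAPT replicate 1. *SKA1*, at 39.9, 39.2 and 44.0 CPM against 44.0, 41.3 and 43.1 CPM, had a log2 fold change of 0.06 and overlapping groups.

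The RZZ complex of ROD, ZW10 and ZWILCH carries dynein and checkpoint proteins to unattached kinetochores. *KNTC1* (chromosome 12, 122527246 to 122626396), which encodes ROD, had the largest decrease of the 39 genes. It was at 85.9, 86.3 and 79.9 CPM in the controls and at 57.1, 58.5 and 51.2 CPM with DAPT (log2 fold change -0.60, standard error 0.06, edgeR adjusted p = 1.15e-07), and the groups were well apart. *ZWILCH* fell from 70.4, 66.6 and 63.2 to 53.9, 60.4 and 60.5 CPM (log2 fold change -0.20, edgeR adjusted p = 0.0188), a call lost without control replicate 1 (-0.16) or DAPT replicate 1 (-0.14), under library size scaling (-0.15) and in DESeq2 (-0.20). Of the corona proteins, the microtubule-binding protein CENP-F and the kinesin CENP-E, *CENPF* was lower and *CENPE* was not called. *CENPF*, with the most reads of the 39 genes, was at 308, 291 and 307 CPM against 285, 253 and 260 CPM (log2 fold change -0.18, edgeR adjusted p = 0.0101). Its call was lost without DAPT replicate 2 (-0.14) or DAPT replicate 3 (-0.16). *CENPE* was at 113, 96.2 and 101 CPM against 104, 96.9 and 94.9 CPM (log2 fold change -0.07).

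The chromosomal passenger complex holds the kinase Aurora B, with INCENP as scaffold and survivin (BIRC5) and borealin (CDCA8) as the module that binds the centromere. All 3 genes were lower. *INCENP* (chromosome 11, 62123998 to 62153169) was at 139, 151 and 168 CPM in the controls and at 126, 120.2 and 120.3 CPM with DAPT (log2 fold change -0.32, standard error 0.06, edgeR adjusted p = 3.57e-04), and without control replicate 1 the log2 fold change was -0.38. *BIRC5* was at 105, 105 and 111 CPM against 95.8, 96.01 and 93.9 CPM (log2 fold change -0.17, edgeR adjusted p = 0.0127). *CDCA8* was at 88.7, 90.2 and 89.0 CPM against 75.1, 76.1 and 83.7 CPM (log2 fold change -0.19, edgeR adjusted p = 0.0106). None of the 3 overlapped between groups, but the call of *BIRC5* was lost without control replicate 3 (-0.15), DAPT replicate 3 (-0.16) or under library size scaling (-0.12), and that of *CDCA8* without DAPT replicate 2 (-0.17).

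The proteins of these complexes act in fixed assemblies, so the balance of their transcripts was examined within each complex. Levels are compared here as CPM per kilobase of annotated exon. In the controls, *ZWINT* stood highest at 53.1 ± 2.98 (SD, n = 3), followed by *CENPW* at 41.9 ± 4.91 and *CENPB* at 40.1 ± 3.66, a pair whose spreads overlapped. The lowest were *CENPP* at 0.981 ± 0.0739, *CENPC* at 2.01 ± 0.117 and *NSL1* at 3.20 ± 0.0827 CPM per kilobase, and these did not overlap. The annotated exons of a gene include parts that not every transcript uses, so long annotations such as the 9321 bases of *CENPP* and the 13867 bases of *NSL1* lower this value. Within the NDC80 complex, the control level of *NDC80* was 29.9 ± 0.915, of *NUF2* 20.8 ± 0.568, of *SPC25* 14.1 ± 0.549 and of *SPC24* 12.0 ± 0.111 CPM per kilobase. With DAPT, *SPC25* at 9.96 ± 0.597 and *SPC24* at 9.35 ± 0.0142 were nearer to each other and *NDC80* at 24.8 ± 0.666 was again highest.

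**Figure D4:**
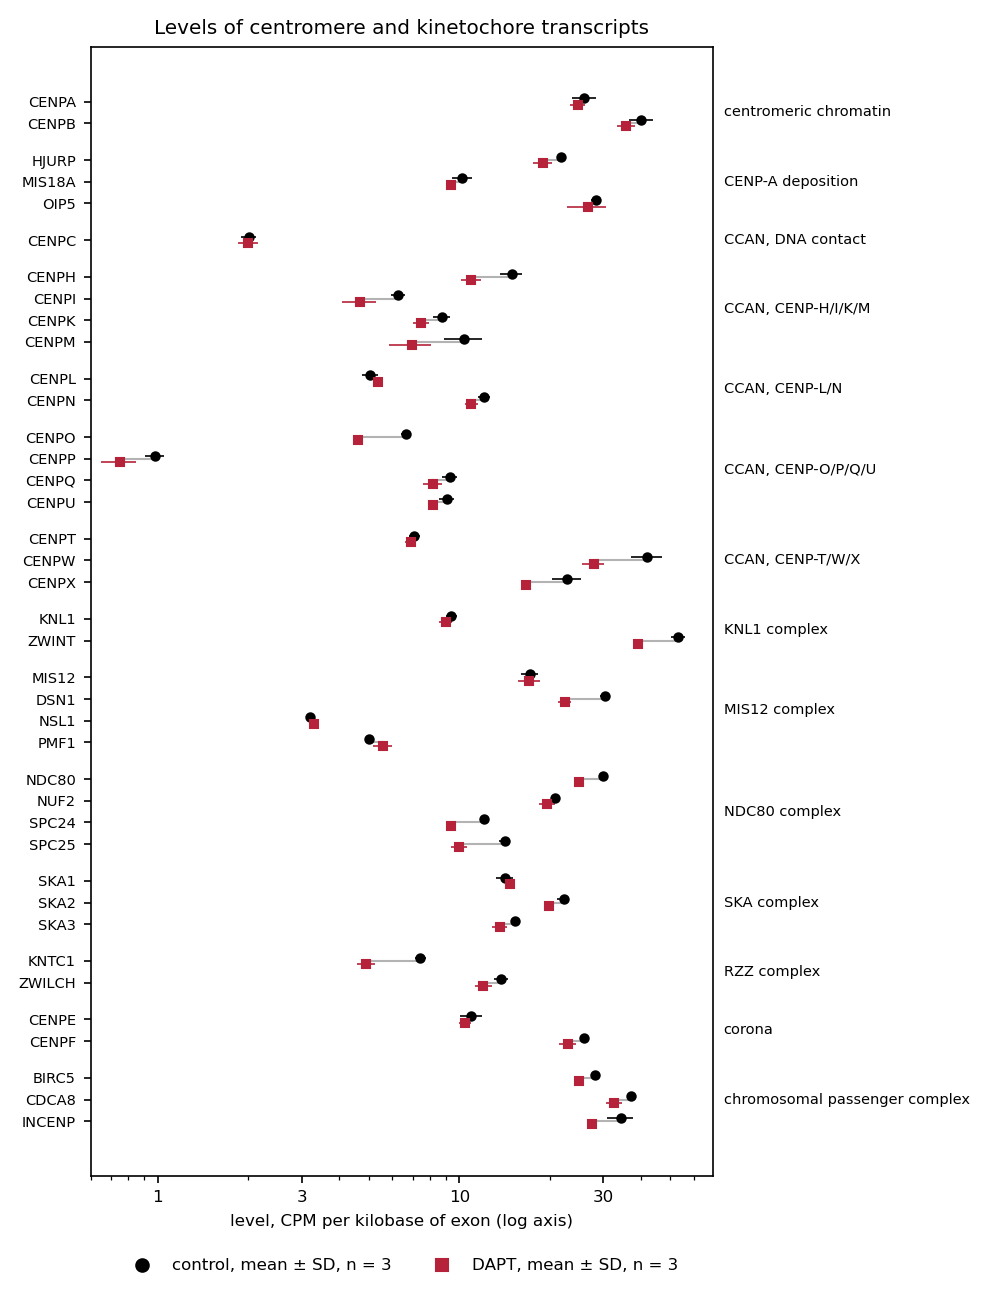
Level of each of the 39 transcripts in CPM per kilobase of exon (log axis), as mean ± SD of 3 control and 3 DAPT libraries, grouped by complex. Levels span from 0.981 for *CENPP* to 53.1 for *ZWINT* in the controls, and transcripts of the same complex differ severalfold, such as *NSL1* at 3.20 and *DSN1* at 30.3.

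For each complex, the ratio of the gene with the most negative log2 fold change to the gene with the most positive one was then followed by library. Because the pairs were chosen by their change in these same libraries, the choice gives the direction and favours separation of the groups. No test was made, and pairs not chosen in this way were not counted. The ratio of *DSN1* to *PMF1*, per length, was 6.33, 5.78 and 6.06 in the controls and 3.60, 3.92 and 4.58 with DAPT. The ratio of *CENPW* to *CENPT* was 5.34, 6.28 and 6.07 in the controls and 3.64, 4.30 and 4.18 with DAPT. In both pairs the highest DAPT ratio was well under the lowest control ratio. The ratio of *SPC25* to *NUF2* went from a mean of 0.680 to 0.512, that of *KNTC1* to *ZWILCH* from 0.540 to 0.411, that of *ZWINT* to *KNL1* from 5.66 to 4.33 and that of *CENPO* to *CENPU* from 0.736 to 0.564, each without overlap. The ratios of *CENPM* to *CENPK*, *CENPN* to *CENPL* and *CENPF* to *CENPE* overlapped between the groups. The mean ratio of *SKA3* to *SKA1* went from 1.09 to 0.922 and that of *INCENP* to *BIRC5* from 1.22 to 1.10, the latter with a highest DAPT ratio of 1.127 just under the lowest control ratio of 1.129.

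**Figure D5:**
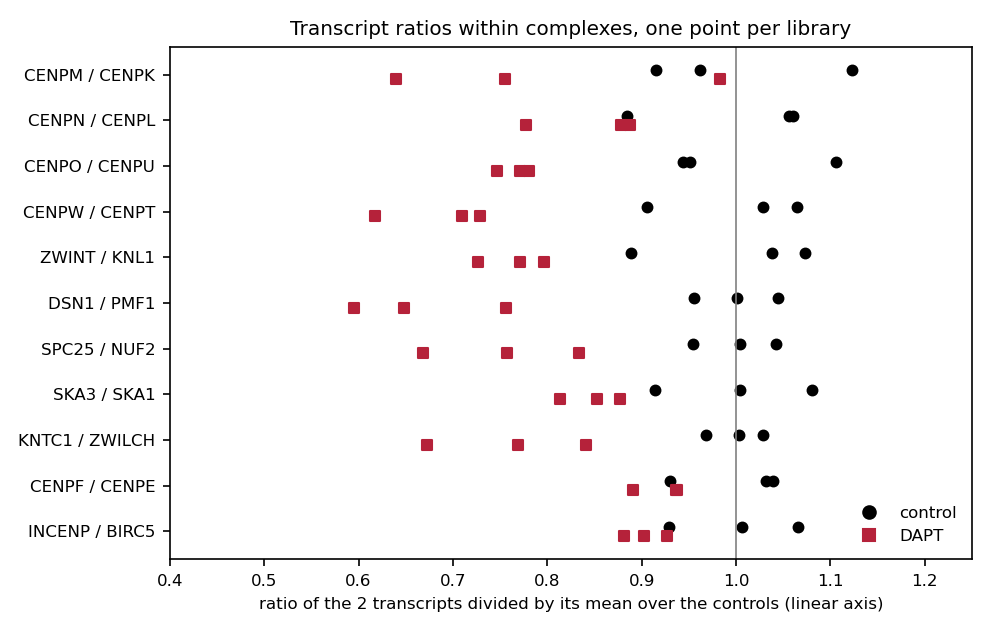
Ratio of the 2 named transcripts of each complex in each library, divided by the mean of that ratio over the controls (linear axis). Of the 11 pairs, 8 have every DAPT point below every control point, and the 3 others, *CENPM* to *CENPK*, *CENPN* to *CENPL* and *CENPF* to *CENPE*, overlap. The pairs were chosen by their change in these same libraries, which favours such separation.

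The wider machinery was covered by 2 further lists. Of 5 other centromere and kinetochore genes, 3 were lower (*ITGB3BP* at -0.30, *ZW10* at -0.22 and *SPDL1* at -0.25), *CENPS* was not called and *BOD1* was higher. *BOD1*, whose product restrains the phosphatase PP2A at kinetochores, was at 41.7, 48.7 and 47.3 CPM in the controls and at 60.6, 60.1 and 61.5 CPM with DAPT (log2 fold change 0.41, standard error 0.07, edgeR adjusted p = 6.45e-05), the only positive value of the list and without overlap. Of 14 genes of the spindle checkpoint and its kinases, 13 were tested and 12 were lower, with a median log2 fold change of -0.33. The largest changes in log2 fold change were those of *TRIP13* (-0.68), an ATPase that remodels the checkpoint protein MAD2, and of *MAD2L1* (-0.66), which encodes MAD2. *MAD2L1* was at 46.0, 46.6 and 48.0 CPM in the controls and at 29.7, 27.8 and 31.8 CPM with DAPT, with wide separation. The kinases *BUB1* (-0.33), *BUB1B* (-0.42), *TTK* (-0.41), *HASPIN* (-0.47), *PLK1* (-0.24) and *AURKB* (-0.20) were lower as well, as were *BUB3* (-0.13), *MAD2L1BP* (-0.34), *SGO2* (-0.20) and *CDC20* (-0.30), while *SGO1* (-0.11) was not called. Without control replicate 1, 10 of the 13 were lower. *MAD1L1* had 2 to 11 reads per library and was not tested. Another gene covers 41.6% of its exonic bases on the same strand.

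All 6 mitosis markers, *MKI67*, *TOP2A*, *CCNB1*, *CCNB2*, *CCNA2* and *CDK1*, were lower, with log2 fold changes from -0.47 to -0.17. Of the 39 genes, 8 belong to the G2/M phase list of the Seurat package and had a median of -0.18, and the 46 other tested genes of that list had a median of -0.25 with 35 lower. For the 42 tested S phase genes of Seurat other than *CENPU*, the median was -0.51 with 38 lower. Without control replicate 1, all 6 mitosis markers, 36 of the 46 G2/M genes and 36 of the 42 S phase genes were lower. In bulk RNA, fewer cells in a phase of the cycle and less RNA per cell cannot be told apart, and the part of the cell cycle distribution in the changes of the 39 genes was not tested.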

How the data were processed

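RNA of HSC-4 cells was sequenced in 3 control and 3 DAPT libraries. The authors deposited raw read counts per Ensembl gene. By the methods of the study, reads were read from a single end, cleaned with Trim Galore and aligned with HISAT2 (GRCh38). Per the file headers, featureCounts 1.6.3 counted exon reads with its forward strand setting and an annotation named as release 96. The labels also list HTSeq and DESeq2. By default, reads mapping to several places or overlapping several genes were not counted. Groups and replicate numbers come from the sample titles. Symbols were matched for 58472 of 58884 genes.

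All genes were fitted with edgeR 4.0.16 (filterByExpr with minimum count 10, TMM, robust quasi-likelihood F test, Benjamini-Hochberg adjustment), and 15001 were tested, with calls at an adjusted p under 0.05. Standard errors were derived from the test statistic. Neighbouring genes were those starting within 1000 bases on the other strand, counted from the gene start of the count annotation. The Seurat 5.3.0 lists give the cell cycle phases. All 39 genes are named, with full values for those with the largest and smallest change of each complex, as are listed and neighbouring genes. The members and lists were chosen with earlier results of these data known. The fit was tested on simulated counts with 2-fold changes, which are larger than those of the 39 genes, so smaller changes were not covered. Alternatives were DESeq2 1.42.0, limma-voom (limma 3.58.1), other scalings and filters, a fit that is not robust, a replicate block and each library left out. A further gene of the wider machinery is not reported here.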

Additional observations from a re-analysis of the deposited data

How the results depend on the processing

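Of the 21 genes called lower, 13 were called in all 14 alternative fits: *CENPH*, *CENPI*, *CENPM*, *CENPO*, *CENPW*, *CENPX*, *ZWINT*, *DSN1*, *NDC80*, *SPC24*, *SPC25*, *KNTC1* and *INCENP*. The other 8 lost the call when some single library was left out. The number called lower was 17 with library size scaling, 17 in DESeq2, 21 in limma-voom, and 16 to 21 with a library left out. Of all tested genes, 14.4% were lower with library size scaling, 17.7% in limma-voom and 14.3% to 19.1% with a library left out. In DESeq2 it was 6.76% of a larger set of 29204 genes. That set includes genes with few reads that the edgeR filter takes out, so this share cannot be compared with the others. In every fit 0 of the 39 genes were called higher. Of all tested genes, 23.0% were higher with library size scaling, 16.7% in limma-voom and 12.4% to 18.0% with a library left out. In DESeq2 the higher share was 5.71% of its larger set. Library size scaling moved the median of all tested genes to 0.06 and the lower share of all calls from 51.3% to 38.5%. It moved the medians of the inner and outer genes to -0.14 and -0.12 and gave log2 fold changes of 0.04 for *CENPC*, 0.01 for *CENPT* and 0.04 for *MIS12*, which changed sign. With a library left out, the inner median ran from -0.23 to -0.18 and the outer median from -0.19 to -0.14. Single genes ran from -0.07 to 0.04 for *CENPC*, -0.08 to 0.04 for *MIS12*, -0.12 to 0.00 for *CENPE* and -0.21 to 0.01 for *OIP5*, and 0 of these 4 genes was called in the fit of all libraries by edgeR. The cause of these shifts was not tested. With the replicate block, 22 genes were lower, *CENPB* being added, and it changed no other call among the 39. The deviations of same-numbered libraries correlated at 0.0162, 0.0361 and -0.0211 over 14260 genes, so the numbers were not taken as pairs. Genes with few reads, such as *CENPP*, are measured least precisely.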

Other observations

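Of the 39 genes, 19 have another gene starting within 1000 bases on the other strand, and 17 of these neighbours were tested. Among the neighbours, 5 were lower, 2 were higher and 10 were not called in edgeR's test. The 9 tested neighbours of genes that were themselves lower included 2 that were lower, *LRRC45* beside *CENPX* and *PRR11* beside *SKA2*, with log2 fold changes of -0.42 and -0.24. *RSRC2*, which starts 246 bases from *KNTC1*, had a log2 fold change of 0.05 (edgeR adjusted p = 0.49), where *KNTC1* was at -0.60. *PTRHD1*, 246 bases from *CENPO*, had 0.01 (edgeR adjusted p = 0.921), where *CENPO* was at -0.53. The higher neighbours were *MMUT* beside *CENPQ* (0.21) and *TATDN3* beside *NSL1* (0.35). *NUSAP1*, a microtubule-binding spindle protein whose gene starts 103 bases from *OIP5*, was lower at -0.30, where *OIP5* was not called (-0.09). The difference between a gene and its neighbour was not tested.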
